A study of Homo sapiens with 4 samples.

Results

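Nuclear RNA polymerases and their core initiation machinery were followed as a set of 31 genes: the subunits of RNA polymerases I, II and III (Pol I, Pol II and Pol III), the Pol II-associated protein POLR2M, and the Pol I initiation factors RRN3, UBTF and TAF1D. The genes were taken by exact symbol from a count table of 56657 rows, and all 31 symbols were found in it. The study compared TE5 cells, a cultured line of human esophageal squamous cell carcinoma, carrying a short hairpin RNA against the nuclear basket nucleoporin NUP153 (shNUP153, 2 libraries, labelled as NUP153 knockdown) with TE5 cells carrying a control hairpin (shControl, 2 libraries, labelled as WT). Every culture had been infected with lentivirus, selected with puromycin and kept in growth medium for 7 days before total RNA was taken. Library descriptions end in g1 and g2 for shNUP153; the labels do not say whether these are different hairpins, and effects of a hairpin on genes other than NUP153 cannot be told apart from loss of NUP153. The labels do not tie the replicates to separate infections, so a p-value measures the spread between these libraries, which may be technical.

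Pol I transcribes the ribosomal RNA precursor in the nucleolus, Pol II transcribes messenger RNAs and many noncoding RNAs, and Pol III makes transfer RNAs, 5S ribosomal RNA and other short RNAs. Each enzyme is built around a pair of large catalytic subunits on an assembly platform. Some subunits are common to all these enzymes, a pair is common to Pol I and Pol III, and the rest belong to a single enzyme. Pol III has alternative forms of a subunit, encoded by POLR3G, known from stem and tumour cells, and by POLR3GL, known from most differentiated cells.

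Library totals lay between 22606593 and 27396268 counts. NUP153 measured 67.9 and 81.9 CPM (counts scaled to a common library total, with TMM factors) in shNUP153 and 149 and 142 CPM in shControl, so the labelled target was low in both knockdown libraries. The shNUP153 libraries were 1.94-fold lower (−0.96 on the log2 scale, adjusted p = 1.05e-14 by edgeR's quasi-likelihood test with Benjamini-Hochberg adjustment). The 8 squamous markers, of which 7 were high enough to test, summed to 2537 and 2526 CPM in shNUP153 and 2079 and 2116 CPM in shControl, and 1 rose and 3 fell. KRT17 alone rose, at 1252 and 1238 CPM in shNUP153 and 745 and 724 CPM in shControl, while KRT5 (log2 fold change −0.68), SOX2 (−0.34) and KRT6A (−0.23) fell. TP63 was at 231 and 238 CPM in shNUP153 and 250.2 and 246 CPM in shControl and did not pass, and KRT14 stayed at or below 0.548 CPM. The 4 endothelial markers summed to 25.2 and 24.1 CPM in shNUP153 and 12.3 and 11.1 CPM in shControl, nearly all of it CDH5, and PECAM1 stayed at or below 0.116 CPM. CDH5 (log2 fold change 1.11, edgeR adjusted p = 6.42e-11) and VWF (0.76, adjusted p = 0.0431) rose. The 6 fibroblast markers summed to 17.3 and 17.4 CPM in shNUP153 and 14.8 and 13.6 CPM in shControl, mostly COL1A1, with DCN and LUM at 0 counts. COL1A1 rose (log2 fold change 0.29, edgeR adjusted p = 0.0255). The 5 leukocyte markers summed to at most 0.863 CPM in any library. The part these marker genes have in the results was not tested.

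With NUP153 reduced, the RNA polymerase genes moved little, and the clearest differences lay in a few subunits of Pol III and in the largest subunit of Pol II. POLR3G fell 1.54-fold, POLR3B, the second largest Pol III subunit, fell 1.38-fold, and POLR2A fell 1.17-fold. POLR1A, POLR1B, POLR2E and POLR3D fell by smaller or less stable amounts, and POLR3A, the partner of POLR3B, rose 1.11-fold. Of 31 members, 30 passed the filter on low counts, and 8 of them (26.7%) passed edgeR's quasi-likelihood test at an adjusted p under 0.05, 7 lower and 1 higher in shNUP153. Over all 16817 tested genes the share was 32.4%, with 17.4% lower and 15.0% higher, so the members' share was close to that of all genes. Their median log2 fold change was −0.06, against 0.005 over all tested genes. With total-count scaling, which moves the median of all genes to 0.07, the members called were 5 higher and 3 lower. In a culture sampled in bulk, fewer cells of a kind and less RNA per cell cannot be told apart.

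The promoters of POLR3B, POLR3A and POLR2A are shown because POLR3B and POLR3A form the Pol III catalytic pair and differed in direction, and POLR2A was the most stable change outside Pol III. RefSeq's promoter table (GRCh38.p14) held an entry for 23 of the 31 members but none for POLR3G, the largest fall. The 250 bases before the annotated start are given 5′ to 3′ on the gene's strand. Capitals mark matches, on either strand, to a list of short motifs, and for POLR3B, which has 2 starts in the table, the first was used.
POLR3B (chr12:106357498-106357747, plus strand): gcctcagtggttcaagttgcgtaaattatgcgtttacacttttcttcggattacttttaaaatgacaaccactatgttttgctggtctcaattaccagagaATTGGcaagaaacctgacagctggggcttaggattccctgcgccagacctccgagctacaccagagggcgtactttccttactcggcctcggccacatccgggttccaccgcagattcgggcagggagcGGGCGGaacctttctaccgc
POLR3A (chr10:78029516-78029765, minus strand): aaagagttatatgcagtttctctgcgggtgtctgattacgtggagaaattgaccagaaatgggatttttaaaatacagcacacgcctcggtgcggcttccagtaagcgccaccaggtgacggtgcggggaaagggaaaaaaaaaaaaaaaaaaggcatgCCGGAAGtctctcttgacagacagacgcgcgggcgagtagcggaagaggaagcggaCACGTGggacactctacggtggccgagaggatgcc
POLR2A (chr17:7484116-7484365, plus strand): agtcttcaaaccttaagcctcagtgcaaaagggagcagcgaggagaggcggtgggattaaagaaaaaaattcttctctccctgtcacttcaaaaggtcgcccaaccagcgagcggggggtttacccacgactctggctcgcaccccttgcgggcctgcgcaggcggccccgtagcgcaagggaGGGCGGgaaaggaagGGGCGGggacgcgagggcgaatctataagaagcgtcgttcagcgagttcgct

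The POLR3B window held a GC box (GGGCGG) and a CCAAT motif in reverse, the POLR3A window an E-box (CACGTG) and an ETS motif (CCGGAAG), and the POLR2A window 2 GC boxes. Among 35116 promoter windows of the same length, 42.6% held the GC box, 32.0% CCAAT, 6.34% the E-box and 8.52% the ETS motif. Of the 23 member windows, 17 held the GC box, 4 CCAAT, 2 the E-box and 6 the ETS motif. Each member window is the first start of its gene, whereas the 35116 windows hold every start listed, so the sets are not alike. The NRF1 motif GCATGCG (3.39% of all windows) and the TATA motif TATAAA (10.7%) were each in 1 member window, and the YY1 motif AAGATGG (3.70%) in 0. No pair of these motifs shared bases in the 3 windows shown. A match describes letters in a window and says nothing of binding.

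**Figure D1:**
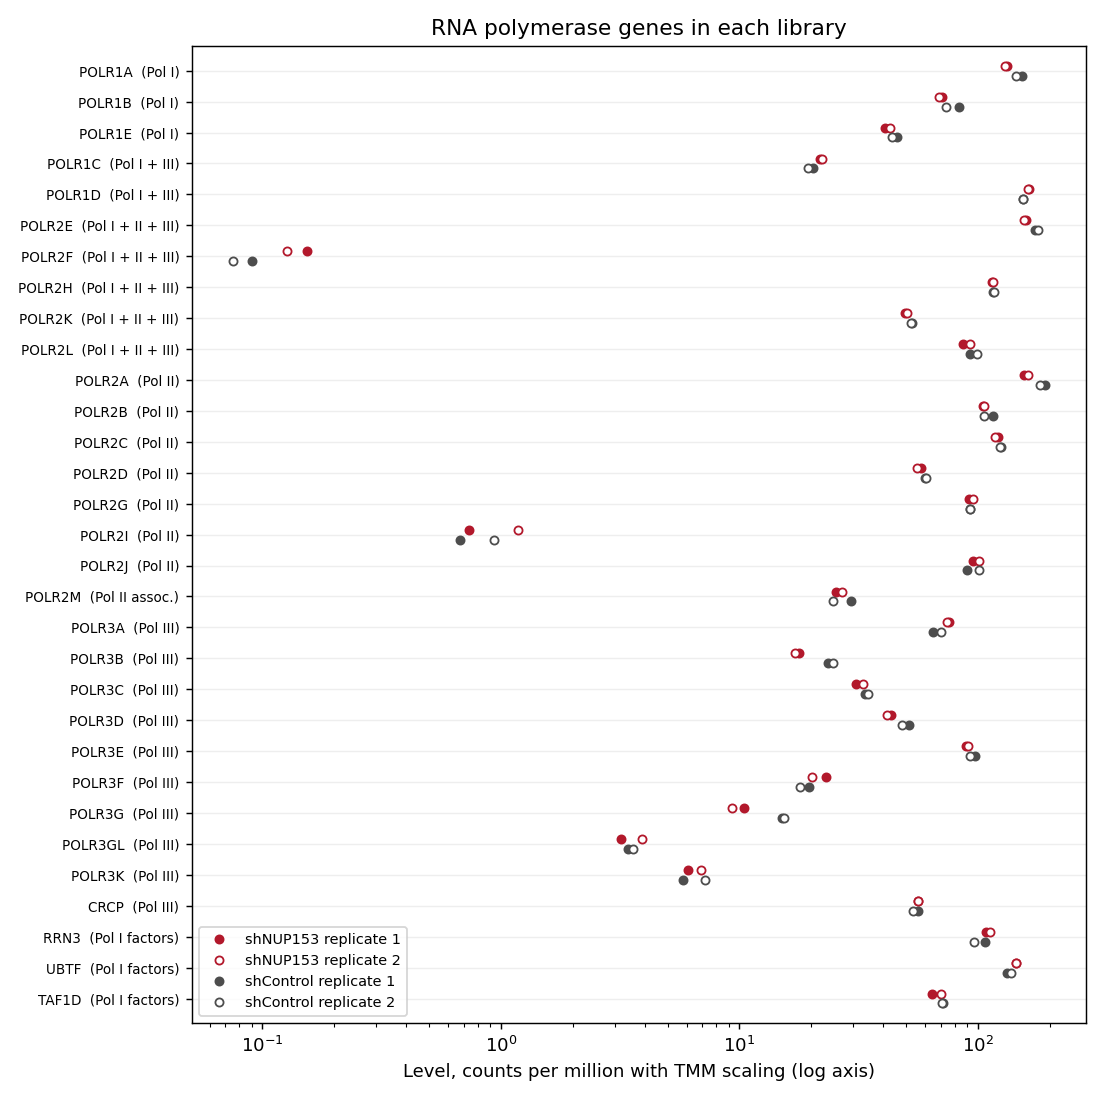
Level of each of the 31 genes in every library, in CPM with TMM scaling on a log axis; red circles are shNUP153 and grey circles shControl, filled for replicate 1 and open for replicate 2. POLR3G and POLR3B show the widest gaps between groups among well-measured genes, while POLR2F and POLR2I lie far below the other subunits.

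Pol III-specific genes held the largest differences. POLR3G measured 10.4 and 9.27 CPM in shNUP153 and 15.1 and 15.3 CPM in shControl (9.84 ± 0.805 against 15.2 ± 0.201, SD, n = 2 each). Both knockdown libraries lay well below both controls. The gene fell by 0.63 on the log2 scale (SE 0.11, edgeR adjusted p = 2.15e-05). The exons of POLR3G overlap those of MBLAC2 on the opposite strand by 260 bp, and MBLAC2 fell too (log2 fold change −0.29, edgeR adjusted p = 0.035). Since no strand setting is given, reads from that stretch cannot be told apart. The overlap covers 6.47% of POLR3G's exon length.

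POLR3GL, the alternative form, measured 3.20 and 3.92 CPM in shNUP153 and 3.43 and 3.56 CPM in shControl, and at 0.02 on the log2 scale (SE 0.19) it did not pass edgeR's test (adjusted p = 0.952). The knockdown libraries bracketed the controls. The ratio of POLR3G to POLR3GL counts, which needs no library scaling, was 3.25 and 2.37 in shNUP153 and 4.39 and 4.31 in shControl. Both knockdown ratios were lower, by 1.57-fold in the mean of logs, with an exact two-sided permutation p of 0.3333, the smallest that 2 against 2 libraries can give. POLR3GL had only 76 to 95 counts per library, and 21.2% of its exon length is shared with AC243547.3, which was listed at 0. The log2 difference of the ratio was −0.65 with all libraries, −0.88 without shNUP153 replicate 1 and −0.42 without shNUP153 replicate 2.

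POLR3A and POLR3B, which together form the Pol III active centre, differed in opposite directions. POLR3B measured 17.7 and 17.1 CPM in shNUP153 and 23.6 and 24.6 CPM in shControl, without overlap between groups (log2 fold change −0.47, SE 0.09, edgeR adjusted p = 6.60e-05). POLR3A measured 75.8 and 74.0 CPM in shNUP153 and 64.7 and 69.7 CPM in shControl (log2 fold change 0.16, SE 0.06, edgeR adjusted p = 0.0395). Here too the groups did not overlap, but the margin was small. POLR3A no longer passed when shNUP153 replicate 1 (adjusted p = 0.294), shNUP153 replicate 2 (0.162) or shControl replicate 1 (0.238) was left out, nor with DESeq2 (0.119), no variance trend (0.0808) or no filter on low counts (0.102).

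Within each library POLR3A had 4.28 and 4.33 counts per POLR3B count in shNUP153 and 2.74 and 2.83 in shControl. That ratio was 1.54-fold higher with NUP153 reduced, and the gap between groups was larger than the spread within them (SD 0.0364 and 0.0596). The same ratio for the catalytic pair of Pol II, POLR2A to POLR2B, was 1.48 and 1.53 in shNUP153 and 1.66 and 1.72 in shControl. For the Pol I pair, POLR1A to POLR1B, it was 1.88 and 1.90 in shNUP153 and 1.84 and 1.97 in shControl, where the groups overlapped. The exact permutation p was 0.3333 for the Pol II and Pol III pairs, again the smallest possible, and 1 for the Pol I pair. These 3 catalytic pairs were chosen after the values were seen.

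**Figure D2:**
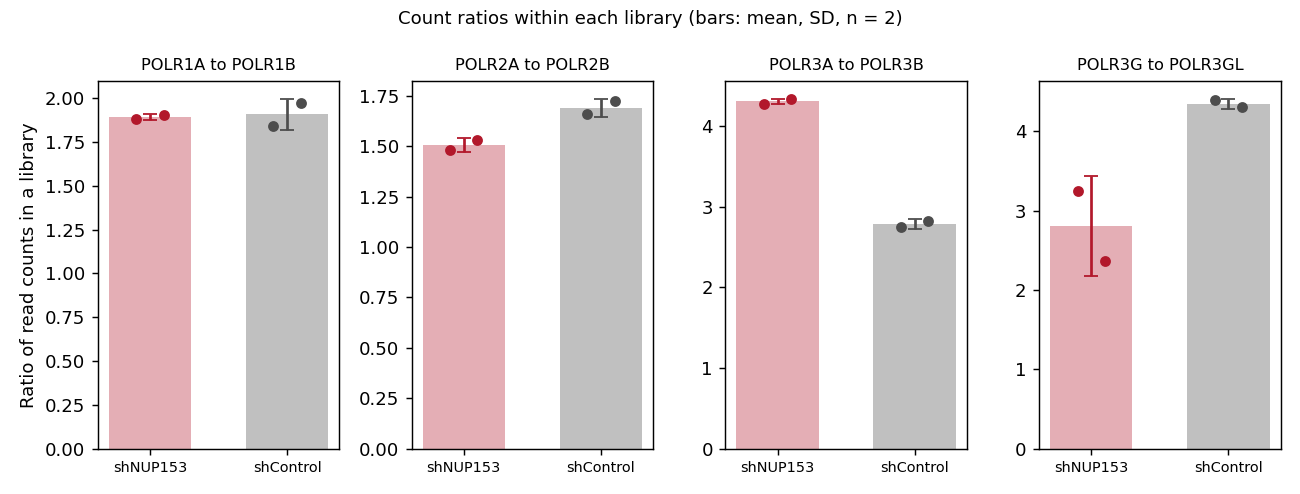
Ratio of read counts between paired subunit genes within each library; bars are means, error bars SD (n = 2) and points single libraries, with shNUP153 in red left of shControl in grey. POLR3A to POLR3B is higher in shNUP153 (4.28 and 4.33 against 2.74 and 2.83), POLR3G to POLR3GL lower, and POLR1A to POLR1B overlaps between groups.

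Among the remaining Pol III-specific genes, POLR3D, which pairs with POLR3E in a module used in termination and reinitiation, measured 43.1 and 41.6 CPM in shNUP153 and 51.6 and 47.9 CPM in shControl. It fell by 0.23 on the log2 scale (SE 0.07, edgeR adjusted p = 0.00773). It no longer passed when shNUP153 replicate 1 (adjusted p = 0.0603), shNUP153 replicate 2 (0.129) or shControl replicate 1 (0.0553) was left out, nor with total-count scaling (0.0574). POLR3E itself was at −0.07 (SE 0.05, adjusted p = 0.329), so the partners were not called together. POLR3F, which sits with POLR3C and POLR3G in the initiation subcomplex, measured 23.1 and 20.2 CPM in shNUP153 and 19.5 and 18.0 CPM in shControl. Its log2 fold change of 0.21 (SE 0.09) missed the threshold (edgeR adjusted p = 0.0758) and passed it with total-count scaling (0.28, adjusted p = 0.0175), upper quartile scaling (0.26, 0.0302), a mean of 5 CPM or more (0.24, 0.0349) and without shControl replicate 1 (0.27, 0.0365). POLR3C had a log2 fold change of −0.10, the stalk subunit gene CRCP 0.03 and POLR3K, whose product acts in RNA cleavage and termination, −0.01. SNRNP25, which overlaps POLR3K on the opposite strand over 8.10% of its exon length, fell (−0.32, adjusted p = 0.0148). Thus the initiation subcomplex held a called fall, POLR3G, beside members with values on either side of 0.

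In all, 3 of the 10 Pol III-specific genes fell and 1 rose, against 17.4% lower and 15.0% higher over all tested genes. The share called, 40%, was near the 32.4% of all tested genes. The summed level of the 10 genes was 356 and 354 CPM in shNUP153 and 371 and 367 CPM in shControl. These sums did not overlap but differed far less in proportion than POLR3G alone. POLR3E, POLR3A and CRCP make up most of the sum. POLR3A, at a mean of 74.9 CPM in shNUP153 and 67.2 CPM in shControl, also moved against the falls of POLR3G, POLR3B and POLR3D.

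The Pol II genes were mostly close between groups. POLR2A, which carries the catalytic centre and the C-terminal repeat domain, measured 156 and 162 CPM in shNUP153 and 191 and 183 CPM in shControl. It fell by 0.23 on the log2 scale (SE 0.05, edgeR adjusted p = 0.000322), with no overlap between groups. POLR2B, the second largest subunit, measured 106 and 106 CPM in shNUP153 and 115 and 106 CPM in shControl, and did not pass (log2 fold change −0.06, adjusted p = 0.403).

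Of 7 Pol II-specific genes, POLR2A was the only one called (14.3%, against 32.4% of all tested genes). The platform genes POLR2C (log2 fold change −0.06) and POLR2J (0.04) and the stalk genes POLR2D (−0.09) and POLR2G (0.01) had standard errors of 0.05 to 0.06 and did not pass. POLR2I had only 15 to 28 counts per library, and 79.6% of its exon length lies under exons of other genes, among them TBCB on the opposite strand. Its log2 fold change of 0.22 had an SE of 0.38 and was not resolved at this depth. POLR2M, also called Gdown1, which binds Pol II and restrains initiation, had a log2 fold change of −0.04 (SE 0.09), and 21.1% of its exon length is shared with GCOM1 on the same strand.

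Shared subunits were close between groups as well. POLR2E, common to all 3 enzymes, measured 158 and 156 CPM in shNUP153 and 173 and 179 CPM in shControl and fell by 0.16 on the log2 scale (SE 0.05, edgeR adjusted p = 0.00843). The groups did not overlap, yet the gene no longer passed when shNUP153 replicate 1 (adjusted p = 0.0802) or shNUP153 replicate 2 (0.133) was left out, nor with total-count (0.117) or upper quartile scaling (0.0535). POLR2H measured 114 and 116 CPM in shNUP153 and 115 and 117 CPM in shControl, so the groups overlapped. POLR2K and POLR2L had log2 fold changes of −0.08 and −0.10 and did not pass. CD151 overlaps POLR2L on the opposite strand over 22.5% of its exon length. POLR2L passed without shControl replicate 1 (−0.15, adjusted p = 0.0396). POLR2F had 4 and 3 counts in shNUP153 and 2 and 2 in shControl, too few to test, although its product belongs to every one of these enzymes. By GENCODE v29, 1.36% of its exon length lies under exons of other genes, and why so few reads were assigned to it was not tested.

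POLR1C and POLR1D, the platform pair of Pol I and Pol III, were slightly higher in shNUP153 without passing. POLR1C measured 21.9 and 22.2 CPM in shNUP153 and 20.4 and 19.5 CPM in shControl (log2 fold change 0.14, edgeR adjusted p = 0.218). POLR1D measured 165 and 163 CPM in shNUP153 and 154 and 155 CPM in shControl (0.08, adjusted p = 0.209), and passed with total-count (0.14, adjusted p = 0.0198) and upper quartile scaling (0.12, adjusted p = 0.0452). Genes on the opposite strand cover 18.2% of the exon length of POLR1C, among them XPO5, which fell (−0.25, adjusted p = 0.000109), and YIPF3, which rose (0.28, adjusted p = 0.000145).

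Of the 3 Pol I-specific members, 2 fell (66.7% called), against 32.4% of all tested genes called and 17.4% lower. A list of 3 genes is too short to read a share from. Of the other Pol I subunit genes ZNRD1 (log2 fold change 0.18), TWISTNB (−0.03, and 0.03 with total-count scaling) and CD3EAP (−0.0045) none passed edgeR's test. POLR1A, the largest Pol I subunit, measured 133 and 130 CPM in shNUP153 and 153 and 145 CPM in shControl, and fell by 0.18 on the log2 scale (SE 0.05, edgeR adjusted p = 0.00562). POLR1B, the second largest, measured 70.7 and 68.4 CPM in shNUP153 and 83.0 and 73.6 CPM in shControl, and fell by 0.17 (SE 0.06, adjusted p = 0.0316). Neither pair of groups overlapped. POLR1E, whose product stabilises Pol I on DNA and helps recruit it, had a log2 fold change of −0.10 (adjusted p = 0.299). POLR1A no longer passed when shNUP153 replicate 1 (adjusted p = 0.0644) or shNUP153 replicate 2 (0.114) was left out, nor with total-count scaling (0.0785). POLR1B no longer passed under 8 of 12 alternatives, among them leaving out either shNUP153 library (0.134 and 0.264) or shControl replicate 1 (0.348), DESeq2 (0.109) and total-count scaling (0.196).

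Of the Pol I initiation factors, RRN3, which couples Pol I to the promoter, measured 108 and 112 CPM in shNUP153 and 107 and 95.9 CPM in shControl. UBTF, which organises the ribosomal DNA promoter, measured 145 and 145 CPM in shNUP153 and 132 and 137 CPM in shControl. TAF1D, a subunit of the promoter selectivity factor SL1, measured 64.0 and 70.2 CPM in shNUP153 and 71.7 and 70.7 CPM in shControl. No factor passed, at log2 fold changes of 0.12, 0.10 and −0.09 (edgeR adjusted p = 0.112, 0.124 and 0.292). RRN3 passed with total-count (adjusted p = 0.00999) and upper quartile scaling (0.0254), a mean of 5 CPM or more (0.0367) and without shControl replicate 1 (0.00394), and UBTF passed with the first 3 of these settings (0.00952, 0.0238 and 0.0376). RRN3 has near-identical copies in the table: RRN3P1 held 147 to 237 counts and RRN3P3 101 to 137, so the split of reads among them is uncertain. TAF1D shares exon bases with 12 annotated genes, 17.3% of its exon length.

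**Figure D3:**
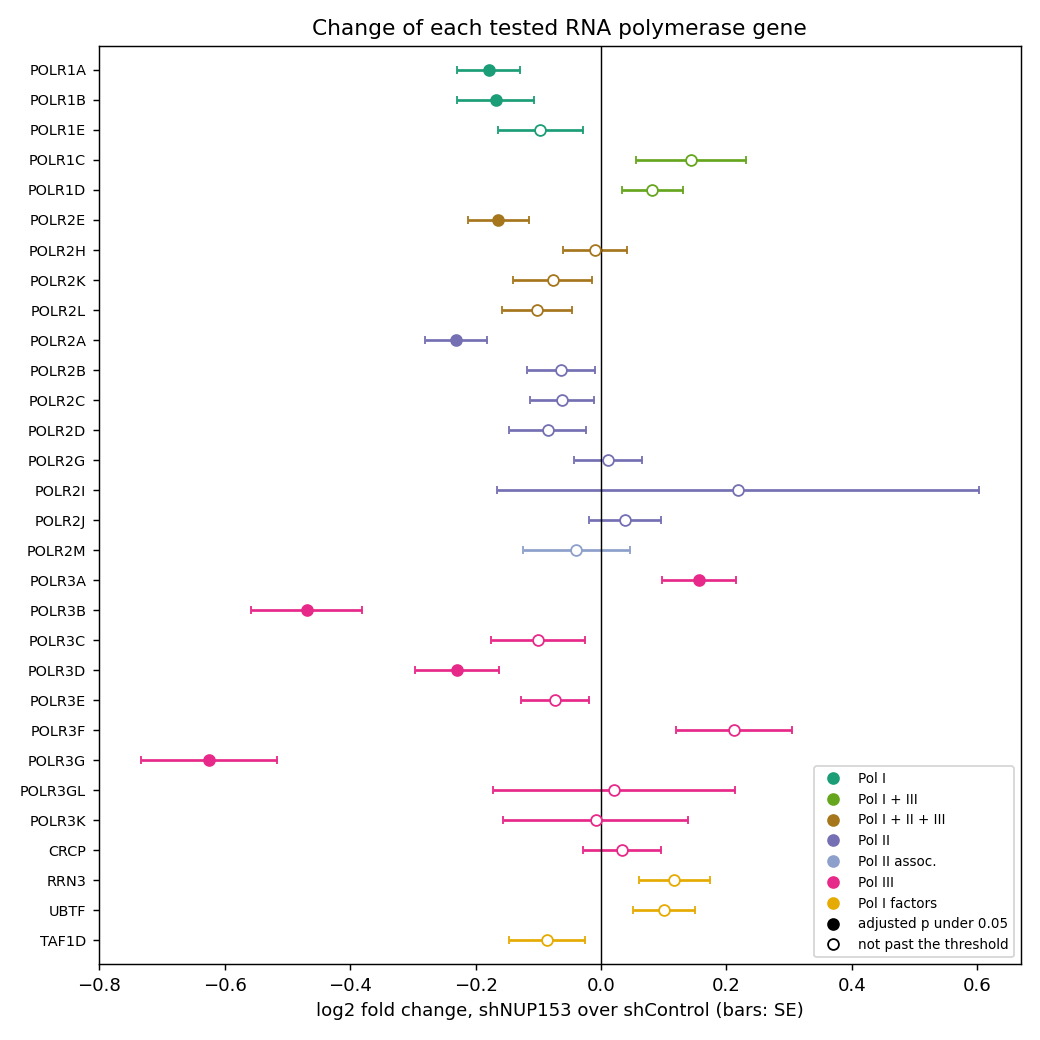
Log2 fold change of each of the 30 tested genes, shNUP153 over shControl, with standard error bars; colours mark the enzyme a gene belongs to, and filled circles have an adjusted p under 0.05. POLR3G (−0.63) and POLR3B (−0.47) stand apart from the rest, which lie between −0.23 and 0.22.

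The members' groups of libraries did not overlap for 21 of the 30 tested genes, where 64.4% of all tested genes did not overlap. Per kilobase of the longest transcript in GENCODE v29, an approximate length since the annotation used for counting is not given, Pol III-specific genes ranged in shNUP153 from 2.22 CPM per kilobase for POLR3GL to 18.8 for POLR3E, and in shControl from 2.18 for POLR3GL to 19.8 for POLR3E. Apart from POLR2I, the 4 lowest tested members in either group were POLR3GL, POLR3G, POLR3B and POLR3K. Leaving aside POLR2I, Pol II-specific genes ranged from 11.3 (POLR2D) to 106 (POLR2J) CPM per kilobase in shNUP153 and from 11.9 to 103 in shControl. On that scale POLR3G was at 3.0 ± 0.245 in shNUP153 and 4.63 ± 0.0612 in shControl, and POLR3B at 4.08 ± 0.103 in shNUP153 and 5.64 ± 0.176 in shControl (SD, n = 2 each). The largest falls, POLR3G and POLR3B, were in genes with low levels per length. POLR3GL (log2 fold change 0.02) and POLR3K (−0.01), also among the lowest, did not pass. POLR2A, which fell as well, was at 23.6 CPM per kilobase in shNUP153 and 27.7 in shControl.

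POLR3G, POLR3B and POLR2A were the 3 members that passed under all 12 alternatives tried. Their log2 fold changes over those settings ran from −0.72 to −0.55, from −0.50 to −0.41 and from −0.27 to −0.17, with largest adjusted p-values of 0.00523, 0.00831 and 0.0423. A further 5 members, POLR1D, POLR2L, POLR3F, RRN3 and UBTF, passed in some alternatives only.

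**Figure D4:**
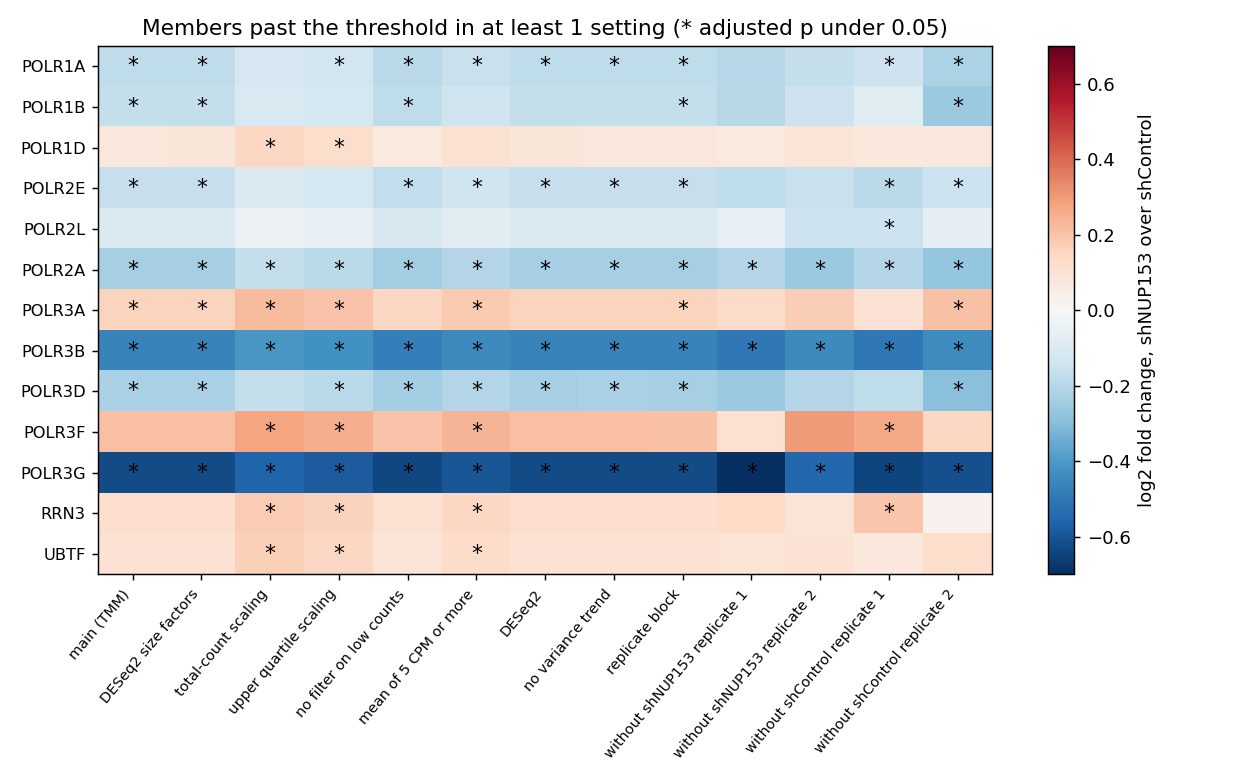
Log2 fold change (colour, shNUP153 over shControl) of the 13 members that passed the test in at least 1 of 13 settings, with the setting in columns and an asterisk where the adjusted p was under 0.05. POLR3G, POLR3B and POLR2A carry an asterisk in every column.

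Subunit and factor genes around the members were read from lists of the same pathway. The share called in each list stands beside 32.4% of all tested genes, 17.4% lower and 15.0% higher. Of 5 tested genes for other subunits or close copies, 1 was called, POLR2J3, a near-copy of POLR2J, at 11.7 and 13.5 CPM in shNUP153 and 10.1 and 10.0 CPM in shControl (edgeR adjusted p = 0.0283; 0.323 without shNUP153 replicate 2, 0.0799 without shControl replicate 2, 0.141 with DESeq2 and 0.0577 with no filter on low counts). Reads of POLR2J, POLR2J2, POLR2J3 and POLR2J4 could be split among them. The copy POLR2J2 (log2 fold change 0.08, from 19 to 24 counts per library) did not pass. The share called among these other subunits and copies was 20%.

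Of 13 tested genes for other factors linked to Pol I, 5 fell and 2 rose, 53.8% called against 32.4% of all tested genes (17.4% lower and 15.0% higher). The 4 with the smallest p were DDX21, a helicase that acts on Pol I and Pol II transcripts (log2 fold change −0.65, 288 and 300.4 CPM in shNUP153 and 485 and 440.3 CPM in shControl), CAVIN1, a caveolar protein also known to release transcripts from Pol I (−0.39), NPM1, the nucleolar chaperone (−0.31), and NCL, nucleolin (−0.29).

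Of 19 tested initiation and control factors of Pol III, 2 rose and 4 fell (31.6% called). SNAPC1, part of the complex that recognises small nuclear RNA promoters, measured 53.2 and 51.0 CPM in shNUP153 and 34.4 and 34.4 CPM in shControl, a rise of 0.60 on the log2 scale (edgeR adjusted p = 8.88e-09). GTF3C6 (−0.32) and GTF3C2 (−0.27), subunits of the transfer RNA promoter factor TFIIIC, and GTF3A (−0.17), which binds the 5S gene, fell. GTF3C2 no longer passed when shNUP153 replicate 1 was left out (adjusted p = 0.0965), nor did GTF3A when shNUP153 replicate 1 (0.0507) or shNUP153 replicate 2 (0.123) was left out or with total-count scaling (0.086). MAF1, the general repressor of Pol III, was at 0.05 (adjusted p = 0.564), a gene named after its value was seen.

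Among Pol II initiation factors, 6 of 29 rose and 5 fell (37.9% called). The TFIID subunit genes TAF13 (log2 fold change 0.61), TAF4 (0.35) and TAF7 (0.26) rose and the TFIIA gene GTF2A1 (−0.29) fell. Other called TFIID genes went either way: TAF12 rose (0.28), while TAF8 (−0.42), TAF5 (−0.42) and TAF6 (−0.17) fell. The latter genes were named after their values were seen. Among pausing and elongation factors, 6 of 31 rose and 5 fell (35.5% called). HEXIM1, which sequesters the pause-release kinase P-TEFb, rose, at 56.3 and 60.0 CPM in shNUP153 and 37.5 and 42.5 CPM in shControl (log2 fold change 0.54, edgeR adjusted p = 1.10e-07). AFF4, a scaffold of the super elongation complex, rose too (0.36), while both subunits of the histone chaperone FACT, SUPT16H (−0.39) and SSRP1 (−0.36), fell.

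Of 22 tested genes for polymerase assembly and import factors, 6 fell and 2 rose (36.4% called). HSP90AA1 (log2 fold change −0.35), HSP90AB1 (−0.29), TELO2 (−0.36) and the R2TP helicase gene RUVBL1 (−0.30) had the smallest p. Of 7 genes of mitochondrial transcription, 1 was called (14.3%), MTERF3, which fell (−0.31, edgeR adjusted p = 0.00744; 0.0605 and 0.0796 without shNUP153 replicate 1 and replicate 2, and 0.0524 with DESeq2). The mitochondrial polymerase gene POLRMT was at 0.05 (adjusted p = 0.636; 0.018 without shControl replicate 2), TFB2M at −0.07 and MTERF1 at −0.05. Over the 7 lists together 19 of 126 tested genes rose and 26 fell, 35.7% against the 32.4% of all tested genes.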

How the data were processed

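RNA sequencing of 4 TE5 libraries was used, 2 shNUP153 and 2 shControl, grouped by their titles. The deposited table holds whole-number counts per Ensembl gene with a symbol, without normalization by the authors as far as the values show, although its name says FPKM. Per the submitters' processing notes, kallisto, DESeq2, Bowtie2, deepTools and build hg19 were involved; no source used here states the counting tool, its annotation or its strand setting.

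Of 56657 rows, 24486 were at 0 in all libraries, 45 gene IDs were listed more than once and 0 lacked a name. filterByExpr (minimum count 10, minimum total 15) kept 16817 genes. They were fitted together with edgeR 4.0.16 in R 4.3.3 (TMM, two-sided quasi-likelihood test, Benjamini-Hochberg adjustment over all tested genes, threshold 0.05), which supplies every adjusted p in the report unless another tool is named. Each SE is the fold change (log2) over the square root of F. Ratios within a library used 0.5 added counts for logs and an exact permutation test over libraries. The members and lists were chosen with earlier results of these data known. Genes to be named were all members, NUP153 and the 4 tested genes of smallest p in each pathway list; 1 listed gene is not reported here and is left out of the list counts.

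The mean chi-square per gene was 3.30 between the shNUP153 libraries and 3.81 between the shControl libraries, where sampling noise gives about 1, so replicates were kept separate. In simulated counts over 16817 genes for shNUP153 against shControl, 36% of the genes with a change of 1.2-fold passed, as did 46% of those with 1.5-fold, 82% with 2-fold and 96% with 4-fold, next to 9 calls among 16617 unchanged genes. Only 50 genes were changed at each fold, whereas 5448 genes were called in the data. With so few changed genes the adjustment is stricter, so these rates do not give the power of the test in the data. Exon lengths and overlaps came from GENCODE v29 (GRCh38), matched by Ensembl ID with no coordinates carried over, and promoters from RefSeq's table on GRCh38.p14.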

Additional observations from a re-analysis of the deposited data

How the results depend on the processing

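The 12 alternatives were DESeq2 size factors, total-count and upper quartile scaling, no filter on low counts, a mean of 5 CPM or more, DESeq2 1.42.0, no variance trend, a replicate block and leaving out each library. Of the member values under them, 296 kept their direction and side of the threshold, 25 lost a call, 14 gained one and 22 changed sign. The count of genes changed was 5448, with 2521 higher and 2927 lower, against 3556 with DESeq2 and 3072 to 5201 when 1 library was left out; total-count scaling gave 3573 higher and 2114 lower, and upper quartile scaling 3177 higher and 2338 lower. The count of members changed was 8, and 3 to 8 when 1 library was left out, falling to 3 without shNUP153 replicate 1 and 3 without shNUP153 replicate 2; the lone library left in a group is then taken to vary like the other group. Members were called 5 higher and 3 lower with total-count scaling, 5 and 5 with upper quartile scaling and 4 higher and 6 lower at a mean of at least 5 CPM. NUP153 kept its fall throughout (−1.10 to −0.83). The replicate numbers do not pair the libraries by label or design (correlation of same-numbered deviations −0.007), and with the replicate block 5465 genes and 8 members were called. The log2 ratio of POLR3G to POLR3GL was −0.64 with 5 counts added; its exact test cannot pass at this size.

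Sign changes came only in genes without a call in the main edgeR fit, although POLRMT passed in 1 alternative. With total-count scaling POLR2H was at 0.054, POLR2C at 0.0010, POLR2M at 0.024, POLR3K at 0.055, TWISTNB at 0.033 and MTERF1 at 0.0089. With upper quartile scaling POLR2H was at 0.034, POLR2M at 0.0042, POLR3K at 0.035 and TWISTNB at 0.013. At a mean of at least 5 CPM POLR2H was at 0.016 and POLR3K at 0.017. POLR2G was at −0.00023 with no filter on low counts, and POLR3K at 0.0037 with the replicate block. When 1 library was left out, POLR2G ranged from −0.016 to 0.033, POLR2I from −0.15 to 0.53, POLR2J from −0.042 to 0.12, POLR2M from −0.17 to 0.082, POLR3GL from −0.13 to 0.16, POLR3K from −0.15 to 0.15, CRCP from −0.013 to 0.068, TWISTNB from −0.082 to 0.0096, POLR2J2 from −0.037 to 0.17 and POLRMT from −0.084 to 0.19. The cause was not tested. POLR2I and POLR3GL fell below a mean of 5 CPM and have no value there, and DESeq2 gave POLR2I no adjusted p. Depth limits POLR2F, POLR2I, POLR3GL and POLR3K most.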

Other observations

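Of the longer Pol III products looked up, RN7SL1, RMRP and RPPH1 were listed at 0 counts in every library. RN7SL2, a copy of the signal recognition particle RNA, measured 141 and 176 CPM in shNUP153 and 184 and 219 CPM in shControl, and fell by 0.35 on the log2 scale (SE 0.07, adjusted p = 0.000112 by edgeR). Its spread was wide, at 158 ± 25.0 CPM in shNUP153 and 201 ± 24.3 CPM in shControl (SD, n = 2 each). Reads of RN7SL1 and other near-identical copies could have been assigned to RN7SL2. BCYRN1, the BC200 RNA, measured 1.97 and 1.10 CPM in shNUP153 and 0.721 and 0.825 CPM in shControl (log2 fold change 0.99, SE 0.36, adjusted p = 0.0309), from 16 to 51 counts per library. These genes were chosen after their values were seen, and their values under the 12 alternatives were not read.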
